A study of Mus musculus with 222 samples.

Results

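The genes described here are 48 genes of the cell cycle, 21 that act at the entry into S phase or in DNA replication and 27 that act in mitosis. Their expression was read from 222 Affymetrix Mouse Gene 1.0 ST arrays of mouse mammary tumors and normal mammary glands, each array holding 1 tissue sample. Each gene was represented by its probe set with 1 gene symbol, and by the one with the highest mean over all arrays where there were several. In this way 47 of the 48 genes were measured, out of 19938 genes with such a probe set. Ccnb1, the main mitotic cyclin, had no probe set of a lone symbol and was not analysed here.

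The tumors arose in mice carrying the MMTV-ErbB2 transgene, in which the promoter of the mouse mammary tumor virus drives ErbB2 in the mammary epithelium. There were 26 tumors from FVB mice, 28 from F1 mice (C57BL/6 crossed with FVB/N) and 160 arrays of tumors from F1BX mice, the offspring of F1 mice and FVB/N, of which 2 are repeat arrays of the tumors 035T1 and 246T1. There were also 3 normal glands of the FVB MMTV-ErbB2 kind, 2 of the F1 MMTV-ErbB2 kind and 3 of F1 wild type, which lack the transgene, so that 5 of the 8 glands carried the same transgene as the tumors. The labels give no ages and do not say how the glands were taken. The study describes lifespans that differ between the genetic backgrounds, so age and genetic background cannot be told apart in the tumor comparisons. Values are log2 expression, and only values of the same probe set are compared.

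The arrays fell into a narrow set of 34, with an interquartile range of the log2 values of 1.86 to 2.62, and a wide set of 188, with 3.04 to 3.35. All 8 glands, 20 F1BX tumor arrays and 6 F1 tumor arrays were in the narrow set, and the 2 sets were kept apart below. Of 47 members, only Mcm7 differed at least 2-fold between F1BX tumors of the narrow and the wide set, where 11.8% of all probe sets did. The members nevertheless shifted together: the median narrow minus wide difference was -0.43 for S phase and -0.29 for mitosis members, against -0.10 over all probe sets. The gland labelled FVB MMTV-ErbB2 replicate 3 had the lowest interquartile range of all (1.86, against 2.20 to 2.36 in the other 7 glands) and was the lowest of the glands for 10 members and the highest for 17, so the members whose tumor and gland difference it moved by over 1.5 times, and the comparison of FVB with F1 glands, are given with and without it. The epithelial genes Krt8, Krt18 and Epcam were expressed in tumors and glands alike, with means of 11.65 or more in each tissue and set. Erbb2 was 9.32 ± 0.94 (SD, n = 8) in glands, 11.97 ± 0.99 (SD, n = 26) in narrow-set tumors and 12.40 ± 0.29 (SD, n = 188) in wide-set tumors. In 4 tumors, 076T1, 092T1, F1_26T1 and 168T1, Erbb2 lay within the range of the glands.

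At the entry into S phase, cyclin E with Cdk2 helps to free the E2F factors from the retinoblastoma protein. E2F then drives genes for origin licensing, the replicative helicase and nucleotide supply, and DNA is copied in S phase. Later, B-type cyclins with Cdk1, the Plk and Aurora kinases and the spindle motors carry the cell through mitosis, and their genes are switched on in G2 by a complex of MuvB proteins, B-Myb and Foxm1 that binds a DNA element called CHR, often near CCAAT boxes bound by NF-Y. Mki67 and Top2a are used in pathology as marks of proliferating tumor cells.

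These elements are shown in the promoters of 6 members, 3 of S phase and 3 of mitosis. The promoters were not used to choose the members of the lists, but the 6 shown are examples and need not be typical. Each stretch runs 5′ to 3′ from 150 bases before to 30 bases after the RefSeq transcription start (mouse build GRCm38.p6). Mcm3 lies at chr1:20820283-20820462 on the minus strand, Mcm6 at chr1:128359676-128359855 on the minus strand and Cdc6 at chr11:98908001-98908180 on the plus strand. Ccnb2 lies at chr9:70421525-70421704, Cdc20 at chr4:118437314-118437493 and Cdk1 at chr10:69352883-69353062, all on the minus strand. Capitals mark E2F words (TTTCCCGC or TTTGCCGC or TTTCGCGC or TTTGGCGC), the CHR word TTTGAA or its variant TTCGAA, and the CCAAT box, on either strand. In Mcm6 a pair of E2F words overlap, and an E2F word and a CHR word share no letters in any of the 6. All 3 S phase promoters shown hold an E2F word, where 7 of 18 S phase members do over the longer window below. All 3 mitosis promoters shown hold both a CHR word and a CCAAT box, where 16 and 18 of 22 mitosis members hold each.
Mcm3: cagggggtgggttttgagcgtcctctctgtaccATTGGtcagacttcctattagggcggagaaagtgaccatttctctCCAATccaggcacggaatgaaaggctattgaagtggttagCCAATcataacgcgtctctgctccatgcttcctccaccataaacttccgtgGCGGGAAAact
Mcm6: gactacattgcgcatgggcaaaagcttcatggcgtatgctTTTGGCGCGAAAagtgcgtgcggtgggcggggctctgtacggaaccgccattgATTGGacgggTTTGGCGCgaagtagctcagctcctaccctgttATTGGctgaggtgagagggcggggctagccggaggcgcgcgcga
Cdc6: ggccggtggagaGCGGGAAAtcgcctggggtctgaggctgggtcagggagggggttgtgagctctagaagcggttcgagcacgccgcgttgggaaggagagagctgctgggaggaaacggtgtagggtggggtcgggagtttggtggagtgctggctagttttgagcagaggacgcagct
Ccnb2: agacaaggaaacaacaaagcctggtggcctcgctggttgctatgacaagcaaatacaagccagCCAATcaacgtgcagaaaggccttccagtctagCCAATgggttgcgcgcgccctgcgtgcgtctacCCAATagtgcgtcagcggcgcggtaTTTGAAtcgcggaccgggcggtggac
Cdc20: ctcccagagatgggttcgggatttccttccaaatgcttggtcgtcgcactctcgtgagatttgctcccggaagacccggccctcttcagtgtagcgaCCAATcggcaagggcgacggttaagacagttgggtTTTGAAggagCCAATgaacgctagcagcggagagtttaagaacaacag
Cdk1: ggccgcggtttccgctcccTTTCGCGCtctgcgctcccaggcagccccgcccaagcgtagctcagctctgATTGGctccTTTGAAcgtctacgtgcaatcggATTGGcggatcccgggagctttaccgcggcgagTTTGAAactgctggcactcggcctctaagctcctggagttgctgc
Over the whole window from 250 bases before to 50 after the start, an E2F word was present in 7 of the 18 S phase members with a RefSeq window (Cdk2, Cdc6, Cdt1, Mcm3, Mcm5, Mcm6 and Mcm7) and in 1 of 22 mitosis members (Cdk1), against 2.6% of all 27025 genes. A CHR word was present in 16 of 22 mitosis members and 4 of 18 S phase members, against 21.7% of all genes. CCAAT was present in 18 of 22 mitosis members and 12 of 18 S phase members, against 41.1% of all genes. The 2 lists therefore differed in the letters of their promoters as well as in their roles. Ccne2, Mcm4, Gins1, Ccna2, Foxm1, Aurkb, Kif20a and Tpx2 had no window in the table used.

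The comparison of tumors with normal glands asked which cell cycle genes are raised in ErbB2 tumors. Within the narrow set of 26 tumors and 8 glands, 33 of 47 members were higher in tumors (fold of at least 2 and adjusted p of at most 0.005 from limma) and none was lower. Even there the interquartile range was 1.86 to 2.36 in glands and 2.33 to 2.62 in tumors. The set held FVB glands but no FVB tumors, and F1BX tumors but no F1BX glands. The part of array width in these differences was not tested. Over all 35556 probe sets, 7.37% were called higher and 4.76% lower. By phase, 12 of 21 S phase members rose, with a median log2 difference of 1.06, and 21 of 26 mitosis members rose, with a median of 1.61, while the median over all probe sets was -0.09. For 28 members, 9 of S phase and 19 of mitosis, every tumor lay above every gland, as it did for 4.29% of all probe sets. With all 222 arrays, 38 members were called higher and none lower (17.5% of all probe sets higher), and for 10 members every tumor lay above every gland (3.71% of all probe sets). In bulk tissue, fewer cycling cells and less RNA per cycling cell cannot be told apart.

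**Figure D1:**
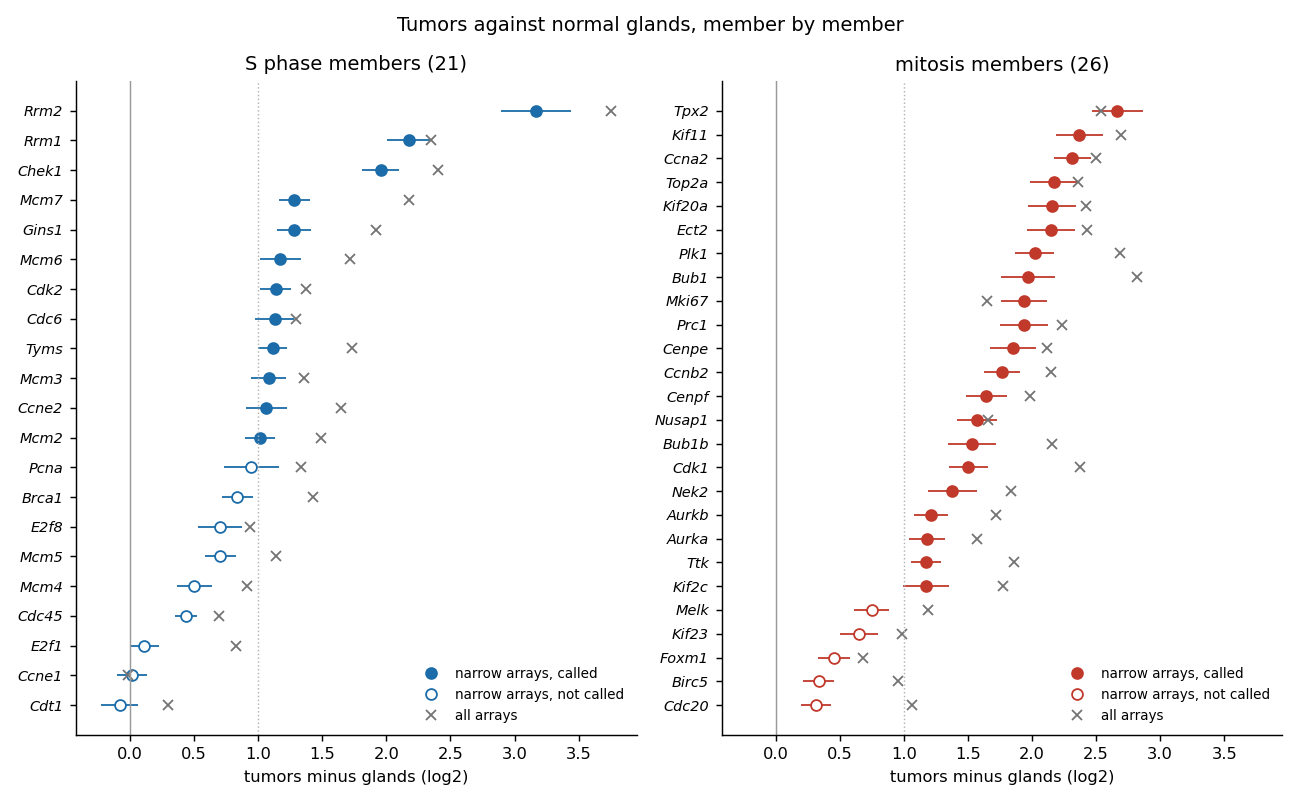
Log2 difference between tumors and normal glands (x axis) for each S phase member (left) and mitosis member (right). Circles and bars give the limma estimate and standard error among 26 tumors and 8 glands of the narrow set, filled where the difference was called, and crosses give the estimate over all 222 arrays; the dotted line marks a 2-fold difference. Rrm2 at 3.17 and Tpx2 at 2.66 lead the lists, and Cdt1, Ccne1 and E2f1 lie near 0.

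Rrm2 and Rrm1 had the largest differences of the S phase genes. Rrm2, the regulated subunit of ribonucleotide reductase, had values of 6.16, 6.79 and 7.04 (lowest, median and highest) in glands and of 8.90, 9.93 and 11.44 in narrow-set tumors. No tumor overlapped the glands. The log2 difference was 3.17 (standard error 0.27, adjusted p = 6.73e-12 from limma), or 3.75 over all arrays. Rrm1, the large subunit of the same enzyme, was 2.17 higher (standard error 0.17), from 7.09 to 9.51 in glands and from 10.35 to 11.65 in tumors. Tyms, which makes thymidylate, was 1.12 higher, again without overlap. Pcna, the sliding clamp of DNA polymerase, ran from 7.63 to 10.86 in glands, with a median of 10.11, and from 10.39 to 11.71 in tumors, with a median of 10.87. The lowest Pcna value was that of FVB MMTV-ErbB2 gland replicate 3, and the next lowest gland was at 9.73. Its difference of 0.95 (standard error 0.22) did not reach 2-fold in the narrow set but was 1.33 over all arrays, where it was called. Without replicate 3 the narrow-set difference was 0.62 (standard error 0.15). Pcna has a second probe set of nearly the same mean that may share probes with a near-identical copy, so its level is less certain than the others.

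Of the 10 licensing and helicase genes, 6 were called: Mcm7 (1.28), Gins1 (1.28), Mcm6 (1.17), Cdc6 (1.13), Mcm3 (1.08) and Mcm2 (1.01). Mcm2, a helicase subunit used as a mark of licensed cells, had values of 7.80, 8.21 and 8.49 (lowest, median, highest) in glands and 8.59, 9.16 and 10.04 in tumors, so its groups lay apart by a small gap. At a fold so close to 2 its call was lost when any 1 of the wild type glands was left out (0.96 to 0.99). Against MMTV-ErbB2 glands alone, both Mcm2 (0.84) and Mcm3 (0.87) lost their calls. The helicase subunits Mcm5 (0.70), Mcm4 (0.50) and Cdc45 (0.44) did not reach 2-fold. Cdt1, which loads the helicase together with Cdc6 and is destroyed as S phase starts, had a difference of -0.08 (standard error 0.14, adjusted p = 0.66 from limma) and of -0.14 without replicate 3, with 7.74 to 8.80 in glands and 7.62 to 8.79 in tumors.

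The regulators of S phase entry were divided. Cdk2, the kinase partner of cyclin E, was 1.14 higher in tumors (standard error 0.12) and Ccne2, a cyclin E, 1.06 higher (standard error 0.16). Without FVB MMTV-ErbB2 gland replicate 3, where Cdk2 was 7.80 against 8.66 to 9.24 in the other glands, the difference of Cdk2 was 0.996 and just under 2-fold. Ccne1, the other cyclin E, had a difference of 0.01 (standard error 0.12) in the narrow set and -0.01 over all arrays. E2f1, the founding member of the E2F family, had 0.11 (standard error 0.11) in the narrow set and 0.82 over all arrays, the latter without reaching 2-fold. For Ccne1 and E2f1 the highest gland value, 9.01 and 7.97, was that of FVB MMTV-ErbB2 gland replicate 3. Without it the differences were 0.17 (standard error 0.09) for Ccne1 and 0.26 (standard error 0.09) for E2f1, neither of them called. Chek1, the kinase of the replication checkpoint, rose by 1.96 (standard error 0.14), from a gland median of 6.65 to a tumor median of 8.56, and Brca1, a repair gene induced in S phase, had a difference of 0.84.

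Of the cyclin group, Ccna2 (cyclin A) had values of 7.19, 7.49 and 7.71 in glands and 8.83, 9.84 and 10.57 in tumors, 2.32 apart on average (standard error 0.15, and an adjusted p = 4.17e-15 by limma). Ccnb2, a mitotic cyclin, was 1.77 higher and Cdk1, the mitotic kinase, 1.50 higher (standard error 0.15), each without overlap. Cdk1 ran from 6.49 to 7.07 in glands and from 7.40 to 9.12 in tumors. Foxm1, the transcription factor of this programme, had a difference of 0.45, under 2-fold, with tumors from 7.17 to 8.43 overlapping glands from 6.88 to 7.61.

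The 3 genes of chromosome structure all rose. Mki67, the antigen stained as Ki-67, had values of 7.76, 8.28 and 8.88 in glands and 9.25, 10.11 and 10.95 in tumors, a difference of 1.94 (standard error 0.18, adjusted p = 3.16e-11 from limma). Top2a, the topoisomerase that untangles sister chromatids, was 2.17 higher (standard error 0.19), from 6.77 to 8.59 in glands and from 8.83 to 10.90 in tumors. Nusap1, which bundles spindle fibres, was 1.57 higher. Mki67 was the only called member whose difference was smaller over all arrays (1.64) than within the narrow set by more than 0.2, and the only one with a mean more than 0.3 higher on narrow than on wide arrays of F1BX tumors (by 0.44).

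Of the 8 mitotic kinases, 7 were called higher. Plk1, which drives entry into mitosis, was 2.02 higher (standard error 0.15), and the checkpoint kinase Bub1 1.97 higher (standard error 0.21). Bub1b (1.53), Nek2 (1.38), Aurkb (1.21), Aurka (1.18) and Ttk (1.18) followed. Melk had 0.75 and was not called. Of the 9 spindle motors and microtubule factors, 8 were called, Kif23 with 0.65 being the exception. Tpx2, which activates Aurora A on the spindle, had the largest difference of all mitosis members, 2.66 (standard error 0.20), with 6.00, 6.52 and 7.06 in glands and 7.94, 9.23 and 10.26 in tumors. Kif11, the motor that separates the spindle poles, was 2.37 higher, Kif20a 2.15 and Ect2, an activator of the cleavage furrow, 2.15. Neither Birc5 nor Cdc20, grouped here as chromosomal passenger and anaphase genes apart from the kinase Aurkb, reached 2-fold within the narrow set. Birc5 (survivin) had 0.33 (standard error 0.12) and Cdc20, the activator of the anaphase-promoting complex, 0.32 (standard error 0.12). Over all arrays these were 0.96 and 1.06, and Cdc20 was then called.

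Other cell cycle genes, taken from lists chosen for their function, had the same order on the same arrays. These lists were chosen with earlier results of these data known, so the order is not a separate result. In the narrow set 28 of 49 other mitosis genes were called higher, with a median of 1.14 and with Spag5 (3.02), Pbk (2.59) and Spc25 (2.55) at the top. Of 44 other replication genes 13 were called, with a median of 0.62 and with Rfc4 (1.98), Tipin (1.97) and Prim1 (1.78) at the top. Of 17 E2F, RB and MuvB regulators 3 were called higher, the E2F partners Tfdp2 (1.53) and Tfdp1 (1.04) and the pocket protein Rbl1 (1.17), with a median of 0.14. None of these lists had a gene called lower. The glands differed from the tumors in their other cells too: in the narrow set all 7 measured T cell genes, 6 of 7 B and plasma cell genes, 6 of 8 basal and myoepithelial genes, 5 of 8 endothelial genes and 5 of 8 fibroblast genes were called lower in tumors, and of 9 luminal genes 2 were higher and 2 lower. The mean of the T cell list was 7.53 to 9.10 in glands and 6.40 to 6.77 in narrow-set tumors. Not every cell list differed in this way. The macrophage list mean was 8.47 ± 0.38 (SD, n = 8) in glands and 8.48 ± 0.68 (SD, n = 26) in narrow-set tumors. The adipocyte list mean was 7.99 ± 0.18 and 7.22 ± 0.65 in the same order. The share of all 35556 probe sets with a lower call in tumors was 4.76%. The part of these cells in the differences of the members was not tested.

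The mean over the 21 S phase members and the mean over the 26 mitosis members were computed for each array to set the phases side by side. In glands the S phase mean was 7.55 ± 0.10 and the mitosis mean 7.02 ± 0.15 (SD, n = 8). In narrow-set tumors they were 8.58 ± 0.24 and 8.57 ± 0.36 (SD, n = 26). The S phase minus mitosis difference was thus 0.52 ± 0.19 in glands and 0.02 ± 0.20 in narrow-set tumors; its level depends on the probes and only its change is of interest. All 26 narrow-set tumors lay above all glands for both means. Of the 188 wide-set tumors, measured on other arrays than the glands, 1 had a mitosis mean below the highest gland at 7.28, the F1BX tumor 084T1 with 7.04. Its S phase mean was 7.73, next to 7.67 in the highest gland. The median narrow minus wide difference in F1BX tumors was -0.43 for S phase and -0.29 for mitosis members. Wide-set tumors and glands are therefore not on one scale, and the count of 1 may be too low.

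**Figure D2:**
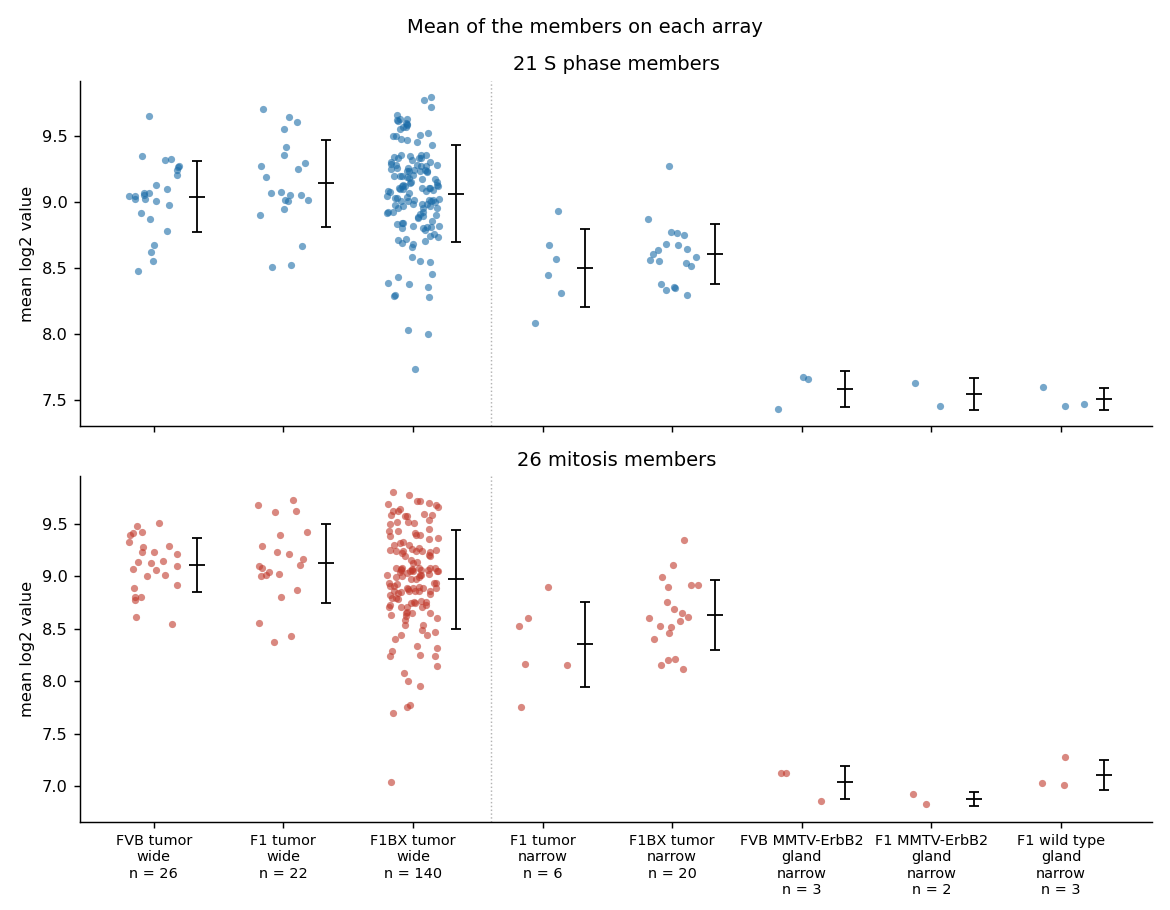
Mean log2 value of the 21 S phase members (top) and of the 26 mitosis members (bottom) on each array (points) by kind of tumor or gland and array set, with the mean and SD of each group beside them (bars). The 8 glands lie between 7.43 and 7.67 for S phase and between 6.83 and 7.28 for mitosis, and 084T1 is the lowest F1BX tumor in both panels.

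The F1 glands with and without the transgene asked whether it changes the cell cycle genes in tissue labelled normal. The S phase mean was 7.59 ± 0.14 (SD, n = 3) in FVB MMTV-ErbB2 glands, 7.46 and 7.63 in the 2 F1 MMTV-ErbB2 glands and 7.51 ± 0.08 (SD, n = 3) in F1 wild type glands. The mitosis mean was 7.04 ± 0.15, 6.83 and 6.92, and 7.11 ± 0.15 in the same order. Between F1 MMTV-ErbB2 and F1 wild type glands, limma called none of the 47 members (0.92% of all probe sets called), and 3 had an unadjusted p under 0.05 (9.71% of all probe sets). The tissue differed between these glands: the luminal list mean was 9.85 and 10.73 with the transgene and 11.35 to 11.97 without it, the basal and myoepithelial list mean 8.19 and 9.09 against 10.44 to 10.53, and the T cell list mean 8.78 and 8.96 against 7.53 to 8.48. The part of these cells in the values below was not tested. Mcm6 was 8.02 and 7.98 with the transgene and 8.90, 8.85 and 8.77 without it, a difference of -0.84 (standard error 0.34, adjusted p = 0.34 from limma). Mcm4, a subunit of the same helicase, went the other way, with 8.74 and 8.39 against 7.71, 8.08 and 8.02 (difference 0.63, adjusted p = 0.48 from limma). Prc1, which bundles the central spindle, was 6.73 and 6.80 against 7.29, 8.36 and 7.22 (difference -0.86, adjusted p = 0.48 from limma). The 2 and 3 arrays leave standard errors of 0.20 to 0.64 for the members, so that small differences were not detectable with these arrays. Mki67 had 7.76 and 8.16 with the transgene and 8.41, 8.88 and 8.48 without it, and Top2a 7.83 and 7.74 against 7.73, 8.45 and 7.76.

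Between FVB and F1 glands with the transgene, none of the 47 members was called by limma (0.0112% of all probe sets), and 1 had an unadjusted p under 0.05 (16.8% of all probe sets). That member was Ccne1, with 7.94, 7.87 and 9.01 in FVB glands and 7.45 and 7.83 in F1 glands (difference 0.64, standard error 0.25, adjusted p = 0.28 from limma). With replicate 3 left out no member was called by limma, 35 of 47 differences moved by over 1.5 times, and the difference of Ccne1 was 0.27. Leaving out FVB MMTV-ErbB2 gland replicate 1 brought Ccne1, E2f1 and Birc5 past the threshold, and leaving out replicate 2 brought Ccne1 past it. These are genes for which replicate 3 was the highest of all glands. Rrm1 had the lowest difference, -0.71, with 9.11, 9.19 and 7.09 in FVB glands against 9.51 and 8.84. Without replicate 3 it was -0.03.

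The tumor genetic backgrounds asked whether C57BL/6 alleles change the cell cycle programme. On wide arrays the S phase mean was 9.04 ± 0.27 (SD, n = 26) in FVB tumors, 9.14 ± 0.33 (SD, n = 22) in F1 tumors and 9.07 ± 0.36 (SD, n = 140) in F1BX tumors. The mitosis mean was 9.11 ± 0.26, 9.13 ± 0.38 and 8.97 ± 0.47. The S phase minus mitosis difference was -0.06 ± 0.16 in FVB, 0.02 ± 0.11 in F1 and 0.10 ± 0.22 in F1BX tumors, and the ranges of the groups overlapped in all 3 measures. No test was run on them. F1 and FVB tumors differed in none of the 47 members (12.3% of all probe sets called by limma), with 6 members at an unadjusted p under 0.05 (28.3% of all probe sets) and standard errors of 0.07 to 0.20. The largest differences were Rrm2, 0.44 higher in F1, followed by Mcm6 (0.33), Mcm7 (0.26) and Kif23 (0.23), and on the lower side Kif2c with -0.36 (adjusted p = 0.061 from limma), Cdc20 (-0.28) and Prc1 (-0.22).

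F1BX and FVB tumors differed in 2 of 47 members, both of mitosis and both lower in F1BX, where 6.74% of all probe sets were called in either direction. Prc1 had values of 9.17, 9.63 and 10.02 (lowest, median, highest) in FVB tumors and 7.38, 9.36 and 10.19 in F1BX tumors, a difference of -0.33 (standard error 0.10, adjusted p = 0.022 from limma). Cdc20 had 8.37, 8.71 and 9.32 in FVB tumors and 7.16, 8.53 and 9.69 in F1BX tumors, a difference of -0.26 (standard error 0.09, adjusted p = 0.049 from limma). For both genes the ranges overlapped almost wholly, and the F1BX tumors reached lower. Just beyond the threshold stood Kif2c, a microtubule depolymerase, with -0.29 (adjusted p = 0.0501 from limma) and, in the other direction, Pcna with 0.20 (adjusted p = 0.0503 from limma). With 1 array per mouse, no member was called, and the adjusted p of Prc1 was 0.082 in limma. Without the tumor 084T1, described below, Cdc20 had -0.25 and was no longer called (adjusted p = 0.053 from limma), while Pcna, at 0.21, was (adjusted p = 0.034 from limma). The medians were 0.02 for S phase and -0.13 for mitosis members, and the largest S phase differences after Pcna were those of Rrm2 and Mcm7, 0.17 each.

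F1BX and F1 tumors of the wide set differed in none of the 47 members (3.65% of all probe sets called by limma), with 8 at an unadjusted p under 0.05 (20.6% of all probe sets). Nusap1 (-0.31), Ccna2 (-0.28) and Rrm2 (-0.27) had the lowest values and Ccne2 (0.08) the highest. The medians were -0.08 for S phase and -0.15 for mitosis. In the narrow set the same comparison, 20 F1BX against 6 F1 tumors, called no member and 0% of all probe sets, with 6 members at an unadjusted p under 0.05 (3.29% of all probe sets), but the values pointed the other way, with medians of 0.12 for S phase and 0.31 for mitosis. Ect2 (0.46), Kif11 (0.45), Kif20a (0.40) and Bub1 (0.40) were the largest. The difference between the sets was tested as an interaction, and limma called no member and 0% of all probe sets, although 10 members, all of mitosis, had an unadjusted p under 0.05 (6.49% of all probe sets), led by Kif20a (-0.66, standard error 0.26, adjusted p = 0.65 from limma). The F1BX tumors of the wide set enter both wide-set comparisons of F1BX tumors, so those values are not independent.

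**Figure D3:**
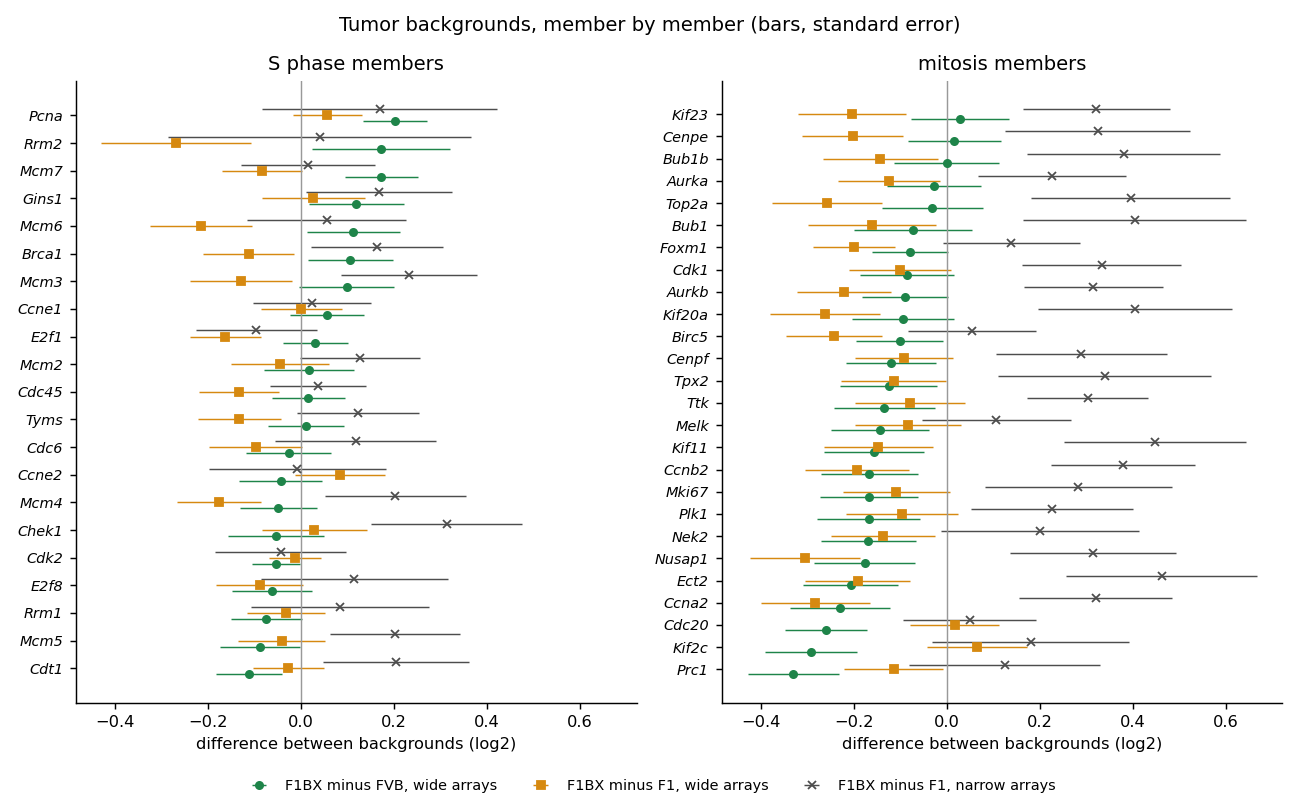
Log2 difference between tumors of different genetic backgrounds (x axis) for each member, with the standard error from limma as bars: F1BX minus FVB on wide arrays (circles), F1BX minus F1 on wide arrays (squares) and F1BX minus F1 on narrow arrays (crosses). Most mitosis members lie below 0 on wide arrays, with Prc1 lowest at -0.33 against FVB, and above 0 on narrow arrays, with Ect2 at 0.46.

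The members varied among tumors more than most genes did, though the genes compared were not matched to the members in expression level. Among the 188 wide-set tumors the median SD was 0.40 for S phase and 0.48 for mitosis members, against 0.22 over all 21789 single-symbol probe sets, and 45 of 47 members had an SD above the upper quartile of these (0.32). Rrm2 varied most, with an SD of 0.69 and values from 8.05 to 12.15, and Cdk2 least, with 0.24 and values from 9.34 to 10.88. Bub1 led the mitosis members with 0.59. On the 26 narrow-set tumor arrays the medians were 0.33 and 0.44, again with Rrm2 highest (0.79), and 29 of 47 members were above the upper quartile (0.35).

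**Figure D4:**
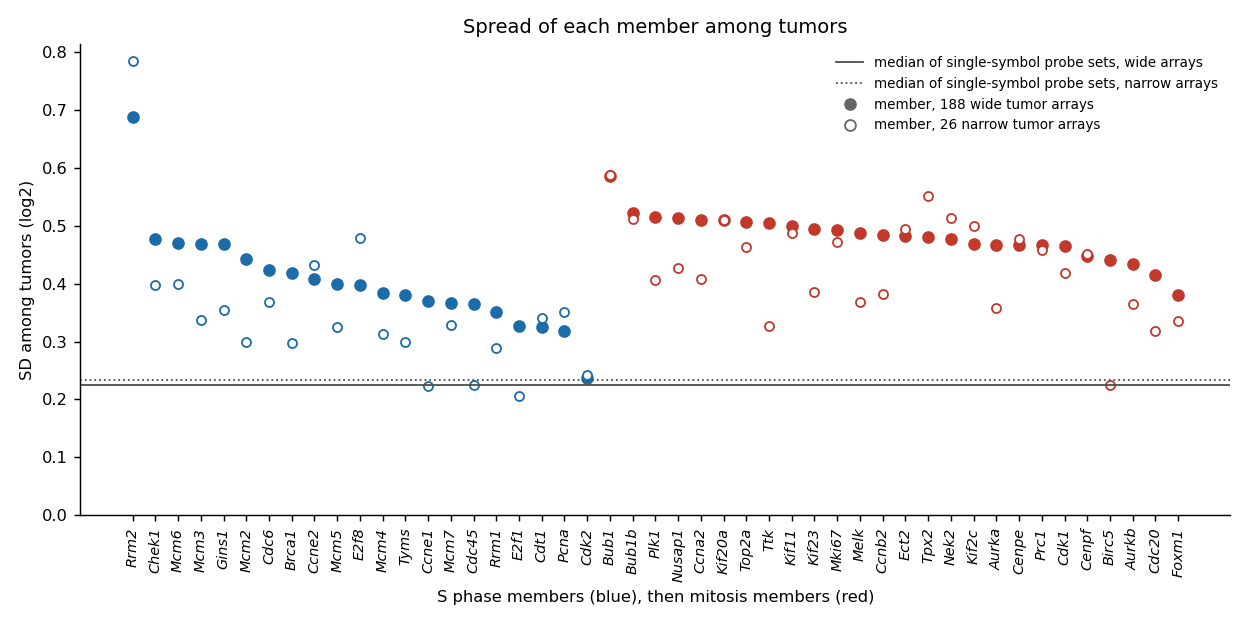
SD of each member among tumors (y axis, log2), for 188 wide-set arrays (filled) and 26 narrow-set arrays (open), S phase members in blue and mitosis members in red, with the median SD of all single-symbol probe sets as lines. Mitosis members lie between 0.38 and 0.59 on wide arrays, above the line at 0.22, and Rrm2 stands highest.

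The members rose and fell together among tumors. Over the 188 wide-set tumors, after the mean of each genetic background was removed, the median correlation was 0.85 between mitosis members, 0.75 between S phase members and 0.72 across the phases. All pairs were positive, from 0.31 to 0.95, the highest being Aurka with Tpx2, its activator (0.95). The loosest members were Ccne2 and Ccne1, with median correlations of 0.57 and 0.61 to the rest of the S phase list, followed by Cdk2 and E2f8 with 0.65 each. Among mitosis members Melk and Cdc20 were the loosest, and Cdc20 was closest to Kif2c (0.92), its neighbour in the FVB comparison. Some S phase members were closest to a mitosis gene, among them Brca1 to Top2a (0.91), Chek1 to Ttk (0.89) and Rrm1 to Prc1 (0.88). On the 26 narrow-set tumors the medians were lower, 0.69, 0.46 and 0.51, and some pairs were negative, down to -0.35 within S phase and -0.49 across the phases. These correlations share the arrays, and with them any factor that moves an array as a whole.

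The S phase and mitosis means were correlated with r = 0.88 (Spearman 0.84) over 188 wide-set tumors, and with r = 0.87 without the 2 tumors farthest from the median of the S phase mean. On narrow arrays r was 0.85 over 26 tumors, and 0.75 without the 2 farthest. The tumors were not all on one line. 207T1 had an S phase mean of 9.13, above the median of all wide-set tumors at 9.08, but a mitosis mean of 8.25, against a median of 9.05, so its difference of 0.87 was the highest of all tumors. Its mate 207T2, from the same mouse, was the fifth highest with 0.56. At the other end of the wide set stood P17T1, an FVB tumor, with -0.41, and 267T2 with -0.41, and in the narrow set 092T1 with -0.43.

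**Figure D5:**
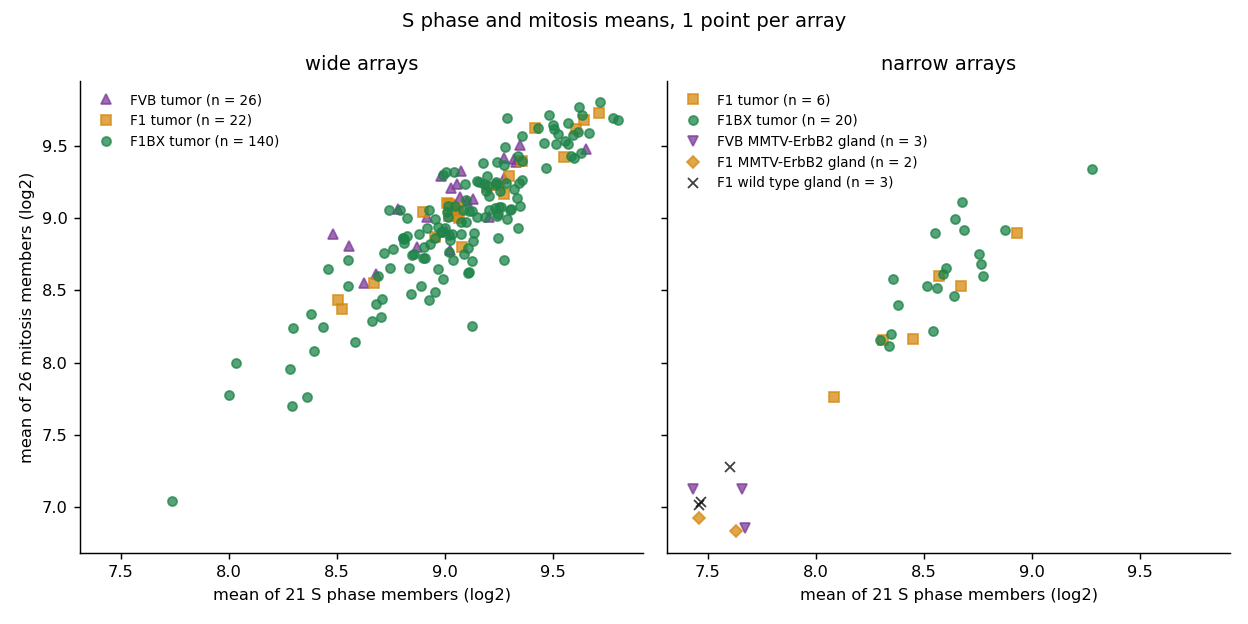
Mean of the 26 mitosis members (y axis, log2) against the mean of the 21 S phase members (x axis, log2), 1 point per array, on wide arrays (left) and narrow arrays (right), by kind of tumor or gland. The points follow a line in both sets, the glands form a group of their own at the lower left of the narrow set, 084T1 lies nearest to their values among wide-set tumors, and 207T1 lies below the line at 9.13 and 8.25.

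The tumor 084T1 had the lowest value of all 188 wide-set tumors for all 26 mitosis members and for 14 of 21 S phase members. Mki67 was 7.46 there and Top2a 7.60, where the medians of the wide-set tumors were 9.96 and 10.28. Its S phase mean was 7.73, with the next lowest, 163T4, at 8.00, and its mitosis mean was 7.04, with the next lowest, 187T1, at 7.70. Erbb2, epithelial genes and the interquartile range were above the median: Erbb2 was 12.49 (median of all 12.43), Epcam 12.44 (12.36), Krt8 13.20 (12.64), and the interquartile range 3.25 (3.22). The means of the T cell, B and plasma cell, macrophage, endothelial and fibroblast lists ranked from 42 to 149 of 188, counted from the lowest. The luminal list ranked 184, the basal and myoepithelial list 35 and the E2F, RB and MuvB regulators 7. Of the tumors with Erbb2 in the range of the glands, 092T1, 076T1 and F1_26T1 had mitosis means of rank 25, 24 and 11 of 26 narrow-set tumors, counted from the lowest, and 168T1 had rank 37 of 188 wide-set tumors.

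In both means, tumors of the same mouse lay no closer in the median than tumors of different mice. On wide arrays, 38 mice had at least 2 tumors, in 78 pairs. The median difference between the mitosis means of such a pair was 0.53, and 0.41 for 10208 pairs from different mice of the same genetic background. For the S phase mean it was 0.43 against 0.32. Over the 21 mice with exactly 2 tumors the median was 0.55 for mitosis and 0.44 for S phase. For the S phase minus mitosis difference the order was reversed, with 0.14 within and 0.20 between mice. The widest pair was 163T1 and 163T4, with mitosis means of 9.25 and 7.77. Pairs share tumors and are not independent, and these differences were not tested.

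The 2 tumors measured on both kinds of array showed how far a value depends on the set. All 47 members were lower on the narrow repeat of 246T1, by a median of 0.88, and 44 of 47 on that of 035T1, by a median of 0.53, where the medians over all probe sets were -0.07 and -0.11. Cdk1 changed by -1.43 and -1.37, whereas Mki67 changed by -0.04 and 0.02. Both lists moved alike, with medians of -0.74 for S phase and -0.91 for mitosis in 246T1, and -0.53 for each in 035T1. These shifts are as large as differences between many tumors, so the values over all arrays are given only beside those within a set.

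The genes outside the lists that followed the mitosis mean most closely over the 188 wide-set tumors (Pearson r with the genetic background means removed, out of all single-symbol probe sets) were Ncapg (0.96), Kif4 (0.95), Kif18b (0.95), Dlgap5 (0.95), Kif14 (0.95), Hmmr (0.94), Cdca2 (0.94), Depdc1a (0.94), Racgap1 (0.94) and Ska3 (0.94). Of these 10, 9 belong to the list of other mitosis genes, and Ska3, a kinetochore gene, does not. For the S phase mean the closest were Dtl (0.94), Uhrf1 (0.94) and Exo1 (0.93). The most negative correlations with the mitosis mean were those of Inpp5k (-0.66), Crebl2 (-0.65) and Lncpint (-0.64). On wide arrays the T cell list mean had r = -0.40 (Spearman -0.44) with the mitosis mean. The macrophage list mean had r = -0.38 (Spearman -0.28) and the luminal list mean r = -0.04 (Spearman -0.05). The B and plasma cell, endothelial, adipocyte, fibroblast and basal list means had r from -0.26 to -0.19. The interquartile range of the array had r = 0.25 and its median r = -0.29 with the mitosis mean.

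The ranges of members with and without a CHR or E2F word overlapped. In the narrow set the 16 mitosis members with a CHR word had a median difference between tumors and glands of 1.71, from 0.32 to 2.37, and the 5 without it 1.38, from 0.33 to 1.85. The 7 S phase members with an E2F word had a median of 1.13, from -0.08 to 1.28, and the 11 without it 0.95, from 0.01 to 3.17. Cdt1, Mcm3 and Mcm6 each carry an E2F word, and their differences were -0.08, 1.08 and 1.17. Ccnb2, Cdk1 and Cdc20 each carry a CHR word, and theirs were 1.77, 1.50 and 0.32.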

How the data were processed

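RNA of mammary tumors and glands was hybridised to Affymetrix Mouse Gene 1.0 ST arrays. The deposited values are log2 intensities that the authors normalized with RMA. They cover 35556 probe sets on 222 arrays, and the number of arrays limits the precision. RMA run on all arrays together gives them a common distribution, which the deposited arrays do not share, so they were split at an interquartile range of 2.8. Gene symbols came from the platform annotation and promoter windows from RefSeq.

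Groups were compared in limma 3.58.1 (R 4.3.3) with Benjamini-Hochberg adjustment over all probe sets. The mouse, read from the tumor names, was a random block (consensus correlation 0.0906 on wide arrays). Comparisons of single groups shared the spread of all arrays of their set. A difference between tumors and glands was called with a fold of 2 or more where the adjusted p did not exceed 0.005, and any other at an adjusted p under 0.05. On simulated data, 91.5% of 200 probe sets changed by 1 (log2) between narrow-set tumors and glands were recovered at an adjusted p under 0.05, with 15 false calls. That threshold is looser than the one used for tumors and glands, so this share does not apply to the calls reported. The labels do not say that the glands came from different animals, so p-values measure only the spread between these arrays.

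The members and lists were chosen with earlier results of these data known. The text names the 4 largest and 3 smallest differences of a comparison, members called between genetic backgrounds or glands, Mki67, Top2a, Pcna, Mcm2 and Cdk1, and the 3 largest of other lists. Further genes were named after their values were seen. Alternatives were the mouse block, 1 array per mouse, quantile normalization, a filter on low values, the mean of all probe sets of a gene, an intensity trend, the array set as a term, other choices of tumors and glands, and leaving out each gland.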

Additional observations from a re-analysis of the deposited data

Results flagged for a closer look

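For each member and phase measure the 8 glands and the 6 narrow-set F1 tumors were checked, in 100 checks. In these, 13 values stood far from the rest of their group. Chance alone singles out about 1 in 20, but the checks share the same arrays and are not independent. The count of 13 was not tested. The glands are of 3 kinds and were checked together. Of these values 10 belong to FVB MMTV-ErbB2 gland replicate 3, the array with the lowest interquartile range (1.86). Its values of Ccne1 (9.01, the next gland at 7.94), E2f1 (7.97 and 7.20), Cdc6 (7.69 and 6.77), Cdc45 (7.92 and 7.67), Plk1 (7.29 and 6.63) and Birc5 (8.17 and 7.22) were high. Those of Cdk2 (7.80 and 8.66), Pcna (7.63 and 9.73), Rrm1 (7.09 and 8.51) and Top2a (6.77 and 7.73) were low. In F1 wild type gland replicate 2, Prc1 (8.36, the next gland at 7.29) and Ect2 (8.13 and 7.38), both of the central spindle, were high. Among narrow-set F1 tumors, Cdt1 was 8.62 in F1_26T1, with the next tumor at 7.94. That tumor is also 1 of those with Erbb2 in the range of the glands (9.72). The part of the array and of the tissue in these values was not tested.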

How the results depend on the processing

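The count of members higher in tumors than in glands ran from 28 of 47 (F1 tumors against F1 glands) to 34 in the narrow set and from 33 (array set as a term) to 39 over all arrays. With F1 tumors against F1 glands, Mcm6, Tyms, Aurka, Ttk and Nek2 lost their calls. In other narrow-set alternatives Mcm2, Mcm3, Ccne2 and Cdk2 lost theirs in at least 1. Leaving out 1 gland gave 32 to 34 in the narrow set and 38 to 39 over all arrays. The count of members differing between F1BX and FVB tumors, 2 as reported, was 4 without the mouse block, 4 with quantile normalization, 4 with the filter on low values and 4 without 051T1 and 063T1, whose names have the form of F1BX names, each time with Kif2c and Pcna added, and 0 with 1 array per mouse. Between F1 and FVB tumors, Kif2c was the 1 member called without 051T1 and 063T1, and also without 084T1, an alternative chosen after seeing the data. Without 084T1 the F1BX and FVB count stayed 2, with Pcna in place of Cdc20, as it did with the mean of all probe sets of a gene. The cause was not tested. Between FVB and F1 glands with the transgene, leaving out 1 gland gave 0 to 3 members. Replicate numbers of the glands share only a number. With the replicate block, fitted on the 8 glands, 0 members were called in either gland comparison, as without it. Without 084T1 the median SD among wide-set tumors was 0.38 for S phase and 0.46 for mitosis members.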
